A study of Mus musculus with 54 samples.

Results

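A set of 9 genes widely used as readouts of glucocorticoid receptor activity was followed through brain macrophages after systemic lipopolysaccharide (LPS), the endotoxin of Gram-negative bacteria. They are Nr3c1, which encodes the receptor, and Fkbp5, Tsc22d3, Per1, Klf9, Sgk1, Ddit4, Zbtb16 and Errfi1. The genes were chosen by symbol, with knowledge that Fkbp5 had the smallest p-value of all genes with LPS in wild-type (WT) microglia, so every WT microglial value below is a description without a test. All 9 symbols were found among the 33280 gene symbols of the count tables.

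The RNA-seq libraries came from brain macrophages sorted as microglia (MG) or as subdural macrophages associated with the CNS borders (sdCAMs, leptomeningeal and perivascular) from brain without choroid plexus, 12 h after injection of LPS or phosphate-buffered saline (PBS) and 8 weeks after treatment with BLZ945, an inhibitor of the receptor CSF1R that depletes macrophages, or with vehicle (CTL). There were 54 libraries in 18 groups of 3. WT mice and mice lacking the chemokine receptor gene Ccr2 (Ccr2-/-) each gave MG and sdCAMs from 3 conditions, namely PBS without other treatment (untreated), LPS after vehicle (CTL LPS) and LPS after BLZ945. Because the PBS mice are labelled untreated and the LPS mice vehicle-treated, vehicle and LPS cannot be told apart in the comparison of CTL LPS with untreated mice. Reporter mice carried CreERT2 on both Ccr2 alleles and tdTomato (tdT) on both R26 alleles. They received 2 mg of tamoxifen at days 0, 2 and 4 and were all BLZ945-treated, and their PBS and LPS labels differ in the injection alone. Their sdCAMs were sorted into tdT+ cells, which descend from cells that had expressed Ccr2, and tdT- cells, which include both resident cells and any unrecombined descendants of Ccr2-expressing cells. WT and Ccr2-/- libraries share a batch label and reporter libraries have another, so every test of reporter mice is within them, and levels set beside those of other mice are descriptions across batches. The paper describes a batch correction of the WT and Ccr2-/- data, which was not made here. The labels give no age for the mice.

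Glucocorticoids, corticosterone in mice, cross the cell membrane and bind the receptor encoded by Nr3c1, which waits in the cytosol in a complex with heat shock protein 90 and immunophilin co-chaperones such as FKBP5. The bound receptor moves to the nucleus, binds DNA at glucocorticoid response elements and raises or lowers transcription of nearby genes. FKBP5 lowers the receptor's affinity for its ligand and so closes a short feedback loop. In macrophages the receptor is known for restraining inflammatory transcription, in part through TSC22D3 (also called GILZ), and systemic LPS is known to activate the adrenal axis. None of the 9 genes answers to the glucocorticoid receptor alone: Per1 belongs to the circadian clock, Ddit4 responds to hypoxia and other stresses, and Sgk1 to osmotic stress and growth factors.

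The receptor's consensus sequence was looked for close to the starts of these genes. Windows from 250 bases before to 50 bases after each RefSeq transcript start were searched on both strands for the palindromic response element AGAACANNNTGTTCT, its single arm AGAACA and the E-box CACGTG that clock proteins bind. A sequence read by NF-kappaB (ggg, any 2 bases, tttcc) was searched as well and was in 1.63% of all windows and in 0 of these genes. Windows of 7 of the 9 genes were used, and Nr3c1 and Zbtb16 had no window among those used. The 4 windows below are 1 per gene with a match, which for Sgk1 is the window with the palindrome. Each line gives the 250 bases before a start in GRCm38.p6, 5′ to 3′ on the gene's strand, with matches in capitals. The positions are chr10:21993640-21993889 (plus strand) for Sgk1, chr17:28486150-28486399 (minus) for Fkbp5, chr11:69098699-69098948 (plus) for Per1 and chrX:140600523-140600772 (minus) for Tsc22d3.
Sgk1: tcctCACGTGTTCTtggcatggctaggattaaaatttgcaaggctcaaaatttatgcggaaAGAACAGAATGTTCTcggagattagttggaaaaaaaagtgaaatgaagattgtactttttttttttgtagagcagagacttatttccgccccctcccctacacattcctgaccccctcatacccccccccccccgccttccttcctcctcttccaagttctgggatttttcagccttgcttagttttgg
Fkbp5: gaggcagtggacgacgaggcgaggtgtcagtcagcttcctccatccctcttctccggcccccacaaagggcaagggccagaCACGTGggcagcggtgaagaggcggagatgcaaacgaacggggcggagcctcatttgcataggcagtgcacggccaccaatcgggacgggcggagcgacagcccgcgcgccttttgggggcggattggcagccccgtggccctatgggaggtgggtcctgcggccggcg
Per1: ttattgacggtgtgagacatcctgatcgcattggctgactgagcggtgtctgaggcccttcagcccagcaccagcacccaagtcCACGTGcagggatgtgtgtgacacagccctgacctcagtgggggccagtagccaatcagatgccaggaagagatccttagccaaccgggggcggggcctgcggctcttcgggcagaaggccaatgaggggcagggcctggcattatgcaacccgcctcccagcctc
Tsc22d3: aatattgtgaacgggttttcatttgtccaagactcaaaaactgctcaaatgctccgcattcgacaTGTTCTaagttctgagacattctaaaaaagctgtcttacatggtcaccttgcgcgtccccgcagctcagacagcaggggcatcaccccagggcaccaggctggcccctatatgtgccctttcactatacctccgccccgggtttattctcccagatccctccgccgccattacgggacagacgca

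The Sgk1 window held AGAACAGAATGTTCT, starting 189 bases before that start, which matches the whole palindrome. Only 3 of the 32817 windows searched, 0.00914%, held such a match. The first capitals of the Sgk1 line are an E-box and an arm that share letters. Sgk1 has 6 windows, of which 3 held an arm and 1 the palindrome. No match was found in the windows of Klf9, Ddit4 and Errfi1. Fkbp5 and Per1 each showed an E-box, 169 and 166 bases before their starts, a sequence in 7.15% of windows. Tsc22d3 had 1 arm, 185 bases before the most upstream of its 3 starts, and such an arm lies in 19% of windows. A match of letters is not a bound site, and response elements known for Fkbp5 lie in its introns, outside these windows.

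Several properties of the libraries touch what follows. Library totals ran from 7497764 to 11330781 counts in MG and from 1705930 to 10727796 in sdCAMs. Reporter MG had 10815 to 12333 genes detected after PBS and 13493 to 14327 after LPS. Totals of tdT+ libraries were 8652557 to 9290262 after PBS and 2060240 to 5467630 after LPS. Any difference in preparation between reporter PBS and LPS mice cannot be told apart from LPS. Levels are given as TMM-scaled CPM, which are counts divided by library size and by a factor from the trimmed mean of M-values, since the acute-phase gene Saa3 took 23% to 35.8% of counts in WT sdCAMs after CTL LPS and 14.5% to 28.3% in tdT- sdCAMs after LPS. Scaling by totals alone shifted the median log2 fold change of all genes to -1.54 in WT sdCAMs and -0.76 in tdT- sdCAMs, and calls that depend on this are given with their values. The 5 microglial markers summed to 5287 to 36748 in MG and 239 to 8552 in sdCAMs, and 5 sdCAM markers to 0.196 to 21.9 in MG and 502 to 21932 in sdCAMs, so that the microglial ranges overlap. The tdT+ library of LPS mouse 5 goes against its label, with 7841 for microglial and 502 for sdCAM markers, and the source of microglial markers in the other sdCAM libraries was not tested. Of the WT sdCAM libraries, 6 carry, including all 3 after CTL LPS, a mark for correction of immediate early genes. In the reporter LPS mice, the column labels of the tdT- library of mouse 1 and the tdT+ library of mouse 7 carry each other's index number, and their sex-linked transcripts match the other mouse, so reporter sdCAM calls are also given after exchange. Titles of the Ccr2-/- LPS libraries name the other cell type than their characteristics do, and the characteristics, whose cell types match the markers, were used. Ccr2 itself was higher in every WT library only in untreated sdCAMs, at 51, 17 and 28.9 TMM-scaled CPM against 2.33 to 5.2 in libraries labelled Ccr2-/-. In sdCAMs after CTL LPS it went the other way, at 0 to 0.755 in WT against 3.05 to 5.47 in Ccr2-/-. Bulk values cannot tell fewer cells of a type from less RNA per cell.

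Across all groups, 4 of the 9 genes separated LPS from its absence without exception on the TMM scale. The groups include WT MG, whose LPS response was used in choosing the genes, so these positions are a description without a test. In the 33 libraries after LPS, Fkbp5 lay between 409 and 1138 TMM-scaled CPM, while the 21 libraries without LPS lay between 9.74 and 310. Ddit4, which encodes the mTORC1 inhibitor REDD1, ranged from 19.5 to 215 after LPS and from 0 to 5.23 without it. Klf9, a Krüppel-like transcription factor, ranged from 31.8 to 161 against 0 to 23.1, and Zbtb16, which encodes the zinc finger factor PLZF, from 27 to 182 against 0 to 9.74. Over 15101 genes, 0.285% had every LPS library above every other library and 0.152% every LPS library below. Per1 came close, at 34.9 to 162 against 3.18 to 75.5. Tsc22d3, Sgk1, Nr3c1 and Errfi1 overlapped widely. The separation depends on the scaling. In CPM from library totals, Fkbp5 was 209 in WT sdCAMs of CTL LPS mouse 4 and 232 in tdT- sdCAMs of LPS mouse 5. PBS mouse 175 had 317 in tdT+ and 274 in tdT- sdCAMs on that scale, so Fkbp5 overlapped. Klf9 in WT sdCAMs then had means of 33.1 ± 20.8 (SD) after CTL LPS and 11 ± 10.7 untreated.

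**Figure D1:**
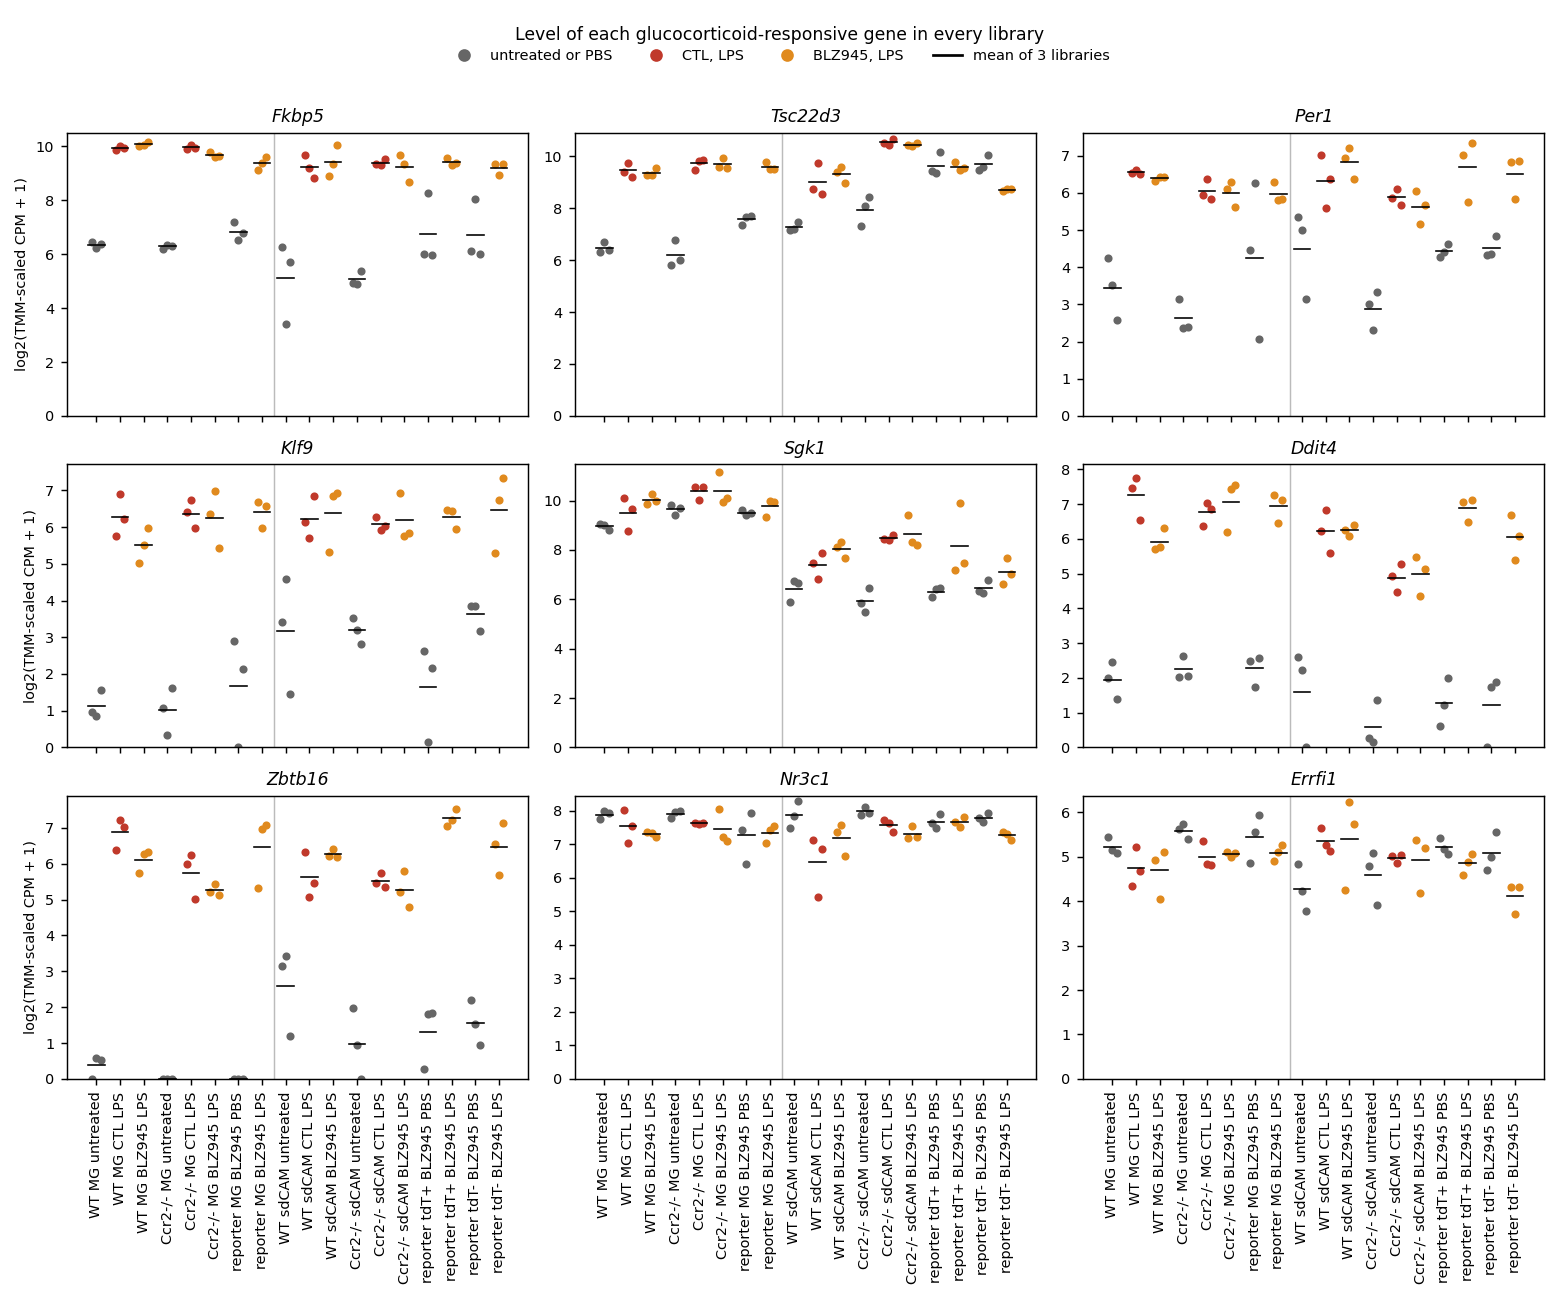
Each panel plots 1 gene, with the 18 groups along the horizontal axis (MG left of the vertical line, sdCAMs right) and log2(TMM-scaled CPM + 1) on the vertical axis; points are libraries and bars are means of 3. On this scale Fkbp5, Klf9, Ddit4 and Zbtb16 sit higher in all 33 LPS libraries than in the 21 without LPS, whereas Nr3c1 and Errfi1 stay in one band.

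After LPS, mean Fkbp5 levels were highest in MG of WT and Ccr2-/- mice, while reporter MG lay among the sdCAMs. Means were 1078 ± 53.5 (SD, n = 3 here and below) in WT MG after BLZ945 and LPS, 996 ± 42.9 in Ccr2-/- MG after CTL LPS, 983 ± 55.8 in WT MG after CTL LPS and 819 ± 49.8 in Ccr2-/- MG after BLZ945 and LPS. Of these neighbours only the Ccr2-/- and WT groups after CTL LPS differed by less than the larger SD. A second block ran from 722 ± 290 in WT sdCAMs after BLZ945 and LPS, through 680 ± 62.2 in tdT+, 671 ± 55.6 in Ccr2-/- sdCAMs after CTL LPS, 669 ± 112 in reporter MG, 630 ± 210 in Ccr2-/- sdCAMs after BLZ945 and LPS and 613 ± 181 in WT sdCAMs after CTL LPS, to 597 ± 88.9 in tdT-. Neighbours within this second block differed by less than the larger of their SDs. So did the means at the border of the blocks, 819 ± 49.8 and 722 ± 290. The highest WT sdCAM library after BLZ945 and LPS had 1043, above the 784 to 876 of Ccr2-/- MG after the same treatment. The blocks therefore rank means and do not part the cell types. Without LPS the order was tdT+ (145 ± 143), tdT- (132 ± 116), reporter MG (114 ± 27), WT MG (80 ± 6.29), Ccr2-/- MG (77 ± 3.74), WT sdCAMs (45.5 ± 33.3) and Ccr2-/- sdCAMs (32.9 ± 6.95), where neighbours again differed by less than the larger of their SDs, except reporter and WT MG. The wide SDs of reporter sdCAMs came from PBS mouse 175, with 310 in tdT+ and 266 in tdT- cells against 61.2 to 68.1 in the other mice.

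WT MG, whose LPS response was used in choosing the genes, showed the following. Fkbp5 went from 85.7, 73.3 and 81 TMM-scaled CPM in untreated mice to 931, 1042 and 976 after CTL LPS, a 12.3-fold higher mean. Tsc22d3 went from 79.3, 103 and 83.2 to 676, 855 and 585, and Per1 from 18.1, 10.4 and 4.94 to 91.4, 96.7 and 90.8. In these genes no LPS library overlapped an untreated one. Klf9 moved from 0.956, 0.814 and 1.98 to 52.7, 118 and 73.2, Ddit4 from 2.97, 4.48 and 1.62 to 177, 215 and 91.9, and Zbtb16 from 0, 0.509 and 0.449 to 82.7, 147 and 130. Sgk1 (536, 518 and 445 against 1114, 433 and 803), Nr3c1 (213, 253 and 241 against 261, 130 and 184) and Errfi1 (42.7, 34.5 and 32.8 against 19.2, 36.3 and 24.7) overlapped. That makes 6 of 9 genes above and 0 below, where 22.1% of genes tested were above and 23% below. Since the rule used this contrast, nothing is read from it.

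In Ccr2-/- MG, 6 of the 9 genes rose with LPS and none fell, where 10.5% of 11558 genes were called higher and 8.89% lower (a call needs an adjusted p below 0.05 and a change of more than 1 on the log2 scale). The receptor transcript was not among them. Nr3c1 measured 218, 250 and 254 TMM-scaled CPM in untreated mice and 198, 193 and 197 after LPS, all below, with a log2 fold change of -0.28 ± 0.206 (SE) and an adjusted p of 0.333. The interval of that change ran from -0.72 to 0.17.

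Fkbp5 rose from 72.9, 80.3 and 77.6 to 963, 1045 and 981 in Ccr2-/- MG, with tight groups far apart. Its log2 fold change was 3.72 ± 0.129 (adjusted p = 5.02e-10), which had rank 2 by p-value among all genes tested. Tsc22d3 rose from 55.8, 107 and 62.6 to 709, 903 and 931, by 3.52 ± 0.237 on the log2 scale (adjusted p = 1.66e-07). The clock gene and the Krüppel-like regulator followed from low starting levels. Per1, a repressor of the clock's own activators, rose from 7.85, 4.2 and 4.28 to 60.2, 82.5 and 56.4 (log2 fold change 3.63 ± 0.285, adjusted p = 5.82e-07). Klf9 rose from 1.09, 0.257 and 2.09 to 83.6, 106 and 61.5 (6.27 ± 0.525, adjusted p = 1.11e-06). In both genes the lowest LPS library was far above the highest untreated one. Ddit4 rose from 3.08, 5.23 and 3.18 to 82.6, 131 and 115 (4.84 ± 0.372, adjusted p = 4.94e-07). Zbtb16 had no count in any untreated library and 62.2, 74.5 and 31.3 after LPS (adjusted p = 1.59e-07), at least 190-fold higher against a floor of 3 counts per library.

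Sgk1 and Errfi1 did not pass the call in Ccr2-/- MG. Sgk1, a serum- and glucocorticoid-regulated kinase, was already at 894, 678 and 837 without LPS and measured 1504, 1037 and 1496 with it, with every LPS library above and a log2 fold change of 0.76 ± 0.265 (adjusted p = 0.0371), under the fold limit. Errfi1, an inhibitor of the epidermal growth factor receptor, measured 48.3, 52.8 and 41.2 against 39.7, 27.5 and 27.2, with every LPS library below and a log2 fold change of -0.57 ± 0.192 (adjusted p = 0.033), also under the limit. In all, 7 genes had every LPS library above and 2 every LPS library below, where 27.1% and 27.2% of genes did. The median log2 fold change of the 9 genes was 3.63, beside 0 over all genes tested. Summed microglial markers were 35146 to 36748 without and 10307 to 11912 with LPS, and monocyte markers 5.48 to 10.1 and 51.2 to 57.1, and their part in these changes was not tested.

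**Figure D2:**
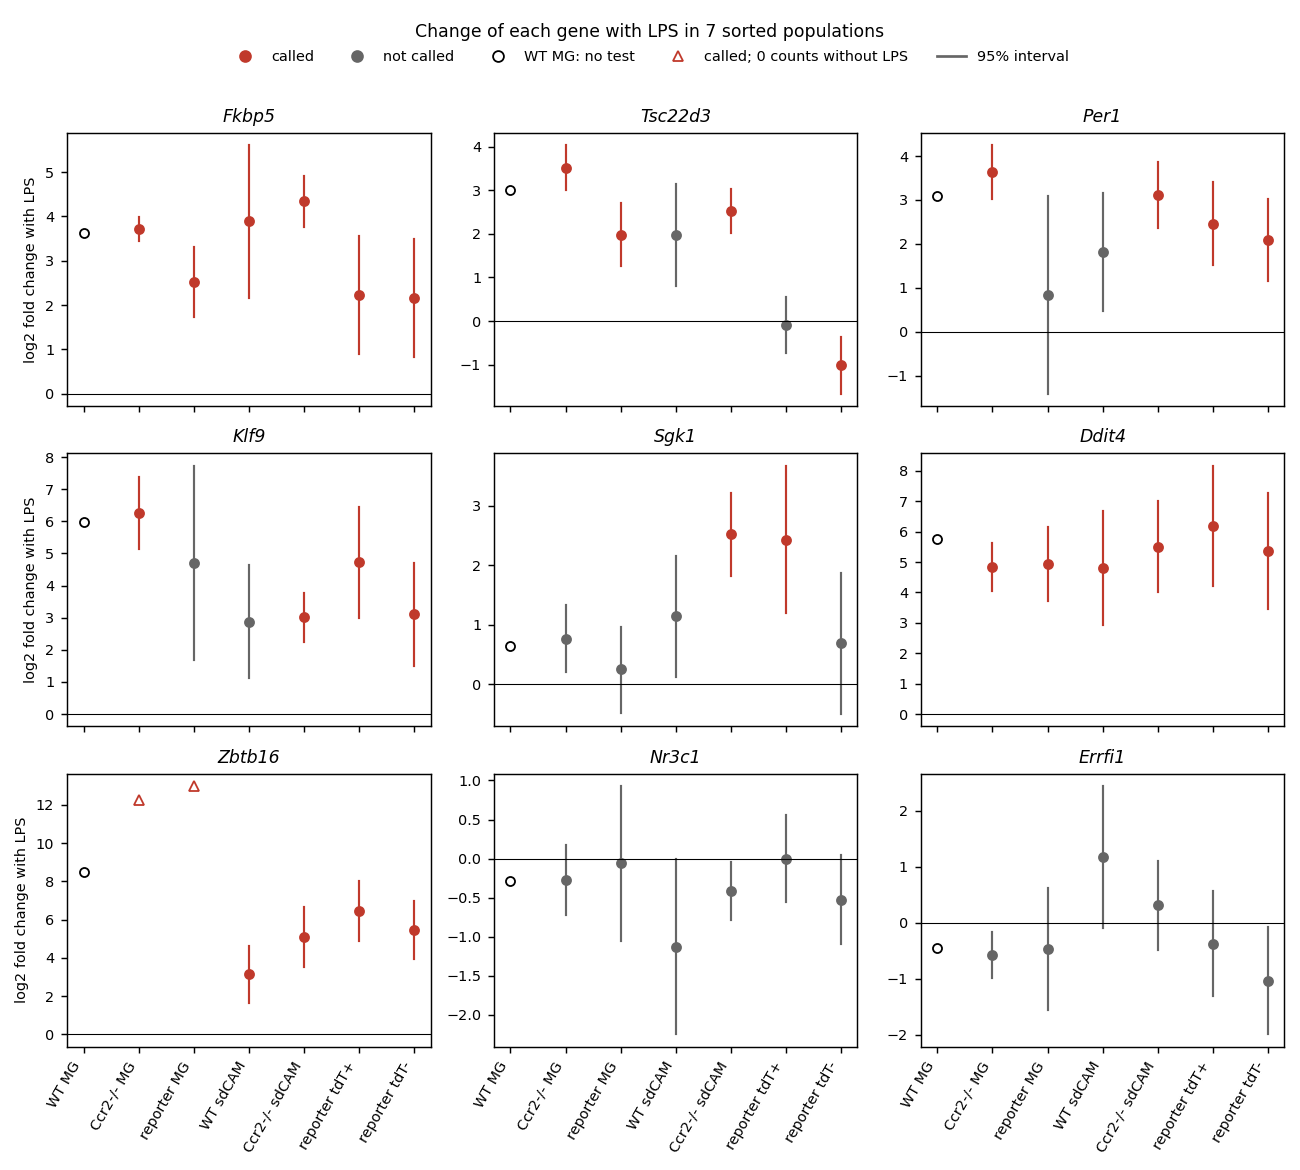
Points are log2 fold changes with LPS (vertical axis) in 7 sorted populations (horizontal axis) for each gene, with 95% intervals; red marks a call, grey no call, an open circle WT MG (no test) and an open triangle Zbtb16 where no count was seen without LPS, so that its height depends on the prior count. Fkbp5, Ddit4 and Zbtb16 are called in all 6 tested populations, though in some populations the call is lost when 1 library is left out. Tsc22d3 runs from 3.52 in Ccr2-/- MG to -1.02 in tdT- sdCAMs.

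Ccr2-/- sdCAMs added Sgk1 to the genes that rose. There, 7 of the 9 genes rose and none fell, where 10.9% of 11941 genes were called higher and 10.6% lower. Fkbp5 rose from 29.4, 28.5 and 41 TMM-scaled CPM to 655, 626 and 734, with a log2 fold change of 4.35 ± 0.265 (adjusted p = 1.84e-07, rank 66 by p-value). Sgk1 rose from 56.7, 44.1 and 85.9 to 347, 337 and 385 (2.52 ± 0.322, adjusted p = 8.53e-05), so its groups stood well apart. Tsc22d3, at 157, 269 and 342 without LPS, reached 1463, 1375 and 1602, the last being the highest value of this gene in the series (2.53 ± 0.23, adjusted p = 4.86e-06).

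The remaining targets in Ccr2-/- sdCAMs rose from low levels. Per1 went from 7.11, 3.95 and 9.05 to 57.2, 68 and 50.2 (3.12 ± 0.346, adjusted p = 2.55e-05) and Klf9 from 10.5, 8.26 and 6.11 to 76.8, 59.5 and 63.8 (3.01 ± 0.35, adjusted p = 3.88e-05). Ddit4 had 2, 1 and 14 counts without LPS, or 0.209, 0.116 and 1.58 TMM-scaled CPM, and 29.3, 21 and 37.9 with it (5.5 ± 0.691, adjusted p = 7.31e-05). Zbtb16 went from 2.93, 0.93 and 0 to 43.3, 52.1 and 40.1 (5.1 ± 0.717, adjusted p = 0.000176). None of these 4 genes had overlapping groups. Nr3c1 (234, 277 and 245 against 208, 198 and 162) was not called, at -0.41 ± 0.171 with an adjusted p of 0.0917, and neither was Errfi1 (26.6, 32.8 and 14 against 31.5, 27.9 and 31.9), at 0.31 ± 0.366 with an adjusted p of 0.587. Non-overlap was seen for 7 genes above and 1 below, where it was seen for 24.6% and 25% of genes, and the median log2 fold change was 3.01 beside -0.05 over all genes. Neutrophil markers in these libraries summed to 1.4 to 3.03 without and 61.1 to 96.5 with LPS, and microglial markers to 3057 to 4596 and 907 to 1208, and their part was not tested.

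Both cell types of the Ccr2-/- mice came from the same animals, and at rest they differed in 6 of the 9 genes. Sgk1 was the clearest microglial transcript of the set, with 894, 678 and 837 TMM-scaled CPM in MG against 56.7, 44.1 and 85.9 in sdCAMs, a log2 difference (sdCAM minus MG) of -3.7 ± 0.361 (adjusted p = 2.78e-07). Fkbp5 was also lower in sdCAMs, by -1.23 ± 0.197 (adjusted p = 0.000105), as was Ddit4, by -2.59 ± 0.626 (adjusted p = 0.00478). Tsc22d3 was higher in sdCAMs, by 1.76 ± 0.248 (adjusted p = 2.41e-05), and so were Klf9, by 2.89 ± 0.538 (adjusted p = 0.000506), and Zbtb16, which had no count in MG and at most 2.93 in sdCAMs (adjusted p = 0.00468). Every sdCAM library was above every MG library for 2 genes and below for 4, where this held for 23.3% and 22.9% of genes. Thus 3 genes were higher and 3 lower, where 8.53% of genes tested were higher and 6.43% lower. Nr3c1 differed by 0.06 and Per1 by 0.3 on the log2 scale without a call. Errfi1 was lower in sdCAMs by -0.96 ± 0.303 (adjusted p = 0.0278), just under the fold limit, and passed it with mouse as a replicate block (-1.03, adjusted p = 0.0166), which made 7 genes called.

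The LPS response itself differed between the cell types for 3 genes, 1 larger and 2 smaller in sdCAMs, where 2.88% of 12890 genes were called in the first direction and 4% in the second. Sgk1 rose by 1.79 ± 0.463 more on the log2 scale in sdCAMs than in MG (adjusted p = 0.0205). Leaving out 1 library at a time gave 1.55 to 2.05 with adjusted p from 0.0116 to 0.0662, and the call was lost without the sdCAM libraries of untreated mice 1m (0.0569) or 3m (0.0629) or the MG library of LPS mouse V2m (0.0662). Klf9 rose less in sdCAMs, by -3.21 ± 0.674 (adjusted p = 0.00456), and kept this call in 12 of 12 such omissions. Zbtb16 had a fitted difference of -7.01 (adjusted p = 0.0151), whose size rests on the MG libraries with no count, and was -5.56 (adjusted p = 0.0665) without the sdCAM library of untreated mouse 1m. Tsc22d3 differed by -0.95 ± 0.34 (adjusted p = 0.101) and Fkbp5 by 0.67 (adjusted p = 0.155), neither called. With mouse as a block, the 3 calls were made again.

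WT sdCAMs varied more between libraries, and 3 of the 9 genes rose, with none lower, where 3.7% of 10504 genes were called higher and 2.62% lower. Ddit4 went from 5.06, 3.65 and 0 TMM-scaled CPM to 74.7, 113 and 47.3 (log2 fold change 4.8 ± 0.855, adjusted p = 0.0122). Fkbp5 went from 75.5, 9.74 and 51.2 to 808, 583 and 450 (3.89 ± 0.783, adjusted p = 0.0189). Zbtb16 went from 7.79, 9.74 and 1.31 to 80, 32.6 and 42.7 (3.14 ± 0.675, adjusted p = 0.0232). All groups of these 3 genes stood apart, but each call was lost in some omissions of 1 library, with adjusted p up to 0.068 for Fkbp5, 0.0758 for Zbtb16 and 0.0548 for Ddit4.

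Another 3 genes of WT sdCAMs lay beyond the fold limit with an adjusted p over the threshold. Tsc22d3 measured 141, 144 and 174 without and 427, 848 and 372 with LPS (1.98 ± 0.536, adjusted p = 0.051), and Klf9 9.73, 23.1 and 1.75 against 69.5, 51.3 and 115 (2.88 ± 0.801, adjusted p = 0.0557). Per1 measured 39.7, 31.3 and 7.88 against 128, 47.8 and 81.7 (1.81 ± 0.612, adjusted p = 0.0955). These groups did not overlap either, and DESeq2 called all 3 together with the former ones, for 6 in all. Sgk1 (57.6, 107 and 100 against 179, 113 and 233) had a log2 fold change of 1.14 ± 0.464 (adjusted p = 0.155) and Errfi1 (27.6, 17.9 and 12.7 against 49.5, 37.3 and 34.1) one of 1.17 ± 0.58 (adjusted p = 0.239). Scaled by totals alone, both turned to -0.33 and -0.24, and Tsc22d3 was 0.45 (adjusted p = 0.658), Per1 0.46 (adjusted p = 0.641) and Klf9 1.58 (adjusted p = 0.136).

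Nr3c1 was lower in every WT sdCAM library after LPS, at 139, 41.9 and 114 against 179, 227 and 313, with a log2 fold change of -1.13 ± 0.512 (adjusted p = 0.198). Under total scaling it was called lower (-2.64, adjusted p = 0.0131) while Zbtb16 lost its call (1.75, adjusted p = 0.106), so that 2 genes were higher and 1 lower. Across the 9 genes, 8 had every LPS library above and 1 below on the TMM scale, where 17.1% and 20.2% of genes did. In CPM from library totals the count of 8 does not hold. Mean Sgk1 was then 72.5 ± 38.4 (SD) with and 91 ± 37.3 without LPS, and mean Errfi1 15.8 ± 2.04 and 18.6 ± 4.22. Neutrophil markers summed to 1.31 to 94.6 without and 359 to 3290 with LPS in these libraries, and their part was not tested. All 3 LPS libraries carry the immediate early gene mark, as do 2 of the untreated ones. With the mark as a covariate, and in marked libraries alone, 5 genes were called, Tsc22d3 and Klf9 being added.

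No gene of the 9 was called for a different LPS response between WT and Ccr2-/- sdCAMs, and none of the 13258 genes tested was either (0%). At an unadjusted p under 0.05, edgeR found 1792 genes, 2 of them in this set. The Ccr2-/- response was larger by 1.57 ± 0.562 for Sgk1 (adjusted p = 0.241) and by 1.5 ± 0.709 for Per1 (adjusted p = 0.365). Their 95% intervals were 0.4 to 2.75 and 0.01 to 2.99. Intervals of other genes were wide as well, at -0.05 to 4.32 for Zbtb16, -1.3 to 3.06 for Ddit4 and -1.48 to 2.1 for Klf9. The lack of calls therefore leaves large differences possible.

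Reporter MG, from BLZ945-treated mice whose labels differ only in the injection, showed 4 genes higher with LPS and 0 lower, where 0.662% of 10882 genes were called higher and 0.423% lower. Fkbp5 went from 144, 91.1 and 108 TMM-scaled CPM to 557, 668 and 781 (log2 fold change 2.52 ± 0.335, adjusted p = 0.0244), and Tsc22d3 from 163, 202 and 206 to 873, 724 and 720 (1.98 ± 0.309, adjusted p = 0.0382). Ddit4 went from 4.65, 2.37 and 4.97 to 152, 86.4 and 137 (4.94 ± 0.525, adjusted p = 0.0111). Zbtb16 went from no count in any PBS library to 39.3, 125 and 134 (adjusted p = 0.0203), at least 348-fold higher against 3 counts per library.

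Of the other reporter MG genes, Klf9 depended on PBS mouse 175. Per1 measured 20.9, 75.5 and 3.18 without LPS, the 75.5 belonging to that mouse, and 77.1, 55.6 and 56.3 with it (0.84 ± 0.964, adjusted p = 0.818). Klf9 measured 6.4, 0 and 3.38 against 101, 62.2 and 93.7, with groups far apart but a wide error (4.7 ± 1.3, adjusted p = 0.13). Without that mouse Klf9 was called as well (4.12, adjusted p = 0.00739) and 5 genes were, whereas leaving out any 1 of the other 5 libraries left 0 calls among the 9. Sgk1 (779, 675 and 731 against 649, 1022 and 987), Nr3c1 (172, 83.7 and 245 against 130, 170 and 186) and Errfi1 (28.3, 46 and 60.3 against 29.1, 33.3 and 37.4) overlapped. A total of 5 genes had every LPS library above and 0 below, where 14.3% and 10.9% of genes did.

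Summing tdT+ and tdT- counts of each reporter mouse, which depends less on the exchanged labels, gave 6 genes higher with LPS and 0 lower, where 14.5% of 12548 genes were higher and 10.6% lower. They were Zbtb16 (log2 fold change 5.96, adjusted p = 4.62e-05), Klf9 (3.42, adjusted p = 0.000392), Ddit4 (5.82, adjusted p = 0.000826), Per1 (2.23, adjusted p = 0.00331), Fkbp5 (2.14 ± 0.573, adjusted p = 0.0225) and Sgk1 (1.85 ± 0.593, adjusted p = 0.0448). Fkbp5 kept its call in 2 of 6 omissions of 1 mouse, with adjusted p up to 0.0787 without LPS mice 1 or 7 or PBS mice 174 or 177. Sgk1 kept its call in 2 of 6, and was 0.61 without LPS mouse 5 (adjusted p = 0.0731) and 1.74 to 1.95 without PBS mice 174, 175 or 177 (adjusted p = 0.103 to 0.134). After exchange 5 genes were called, Sgk1 (1.81, adjusted p = 0.0716) being lost, and total scaling also cost Sgk1 its call (1.58, adjusted p = 0.0604). Tsc22d3 was -0.52 (adjusted p = 0.198).

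Within tdT+ sdCAMs, 6 of the 9 genes rose and 0 fell, where 7.54% of 12708 genes were called higher and 5.82% lower. Zbtb16 went from 0.216, 2.48 and 2.54 to 133, 149 and 182 (6.45 ± 0.744, adjusted p = 8.43e-05), the last being its highest value in the series, and Ddit4 from 0.54, 1.35 and 2.96 to 132, 88.2 and 139 (6.19 ± 0.933, adjusted p = 0.00058). Klf9 went from 5.18, 0.113 and 3.49 to 87, 86.2 and 60.4 (4.72 ± 0.819, adjusted p = 0.00159), and Per1 from 18.4, 20.4 and 23.5 to 128, 52.8 and 162 (2.46 ± 0.444, adjusted p = 0.00206). These 4 genes had groups well apart. Fkbp5 went from 63.6, 310 and 61.2 to 747, 624 and 669 (2.23 ± 0.626, adjusted p = 0.0278), and was 2.22 with an adjusted p of 0.0595 after exchange of the 2 libraries. Tsc22d3 stayed at 684, 648 and 1136 against 874, 699 and 748 (-0.09 ± 0.301, adjusted p = 0.887). Fkbp5 kept its call in 2 of 6 omissions of 1 library, with adjusted p up to 0.108. After exchange 5 genes were called, Zbtb16 (6.15, adjusted p = 0.00104), Ddit4 (6.04, adjusted p = 0.00391), Klf9 (4.58, adjusted p = 0.00587), Per1 (2.24, adjusted p = 0.0117) and Sgk1 (2.34, adjusted p = 0.047). In tdT+ cells 6 genes had every LPS library above and 0 below, where 18.9% and 20.3% of genes did.

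Sgk1 in tdT+ sdCAMs was decided by 1 library. Its values were 66.7, 84.4 and 86.2 without and 143, 958 and 175 with LPS, a log2 fold change of 2.43 ± 0.582 (adjusted p = 0.0119). The 958 belongs to mouse 5, whose tdT+ library had microglial markers at 7841 against 471 and 622 in mice 1 and 7, and sdCAM markers at 502 against 2957 and 3687. Without this library the change was 0.99 (adjusted p = 0.0765), and without PBS mouse 174 the adjusted p was 0.0524. The part of microglial RNA in it was not tested. In the other LPS sdCAM libraries Sgk1 ran from 98.4 to 676 with microglial markers lower than in every library without LPS.

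**Figure D3:**
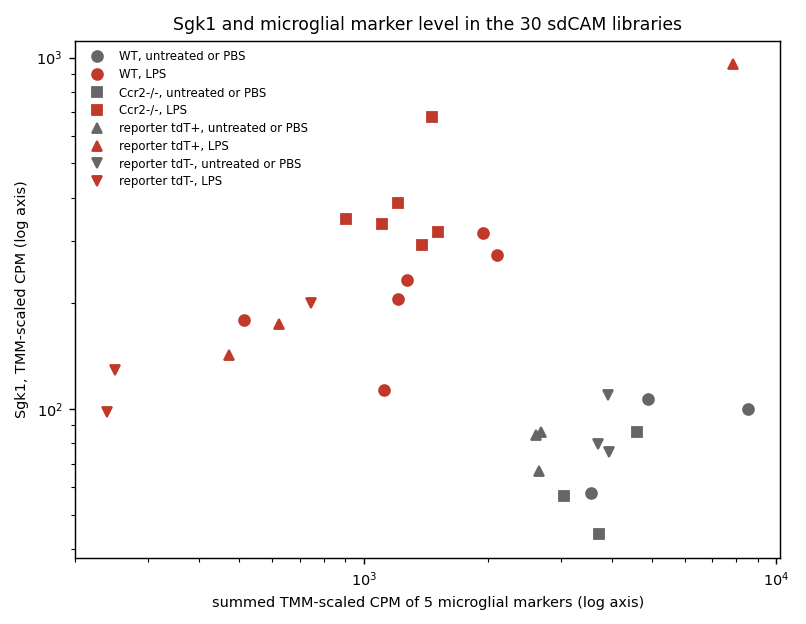
Each point is 1 of the 30 sdCAM libraries, with the summed TMM-scaled CPM of 5 microglial markers on the horizontal and Sgk1 on the vertical axis, both logarithmic; red marks LPS and shapes mark genotype or tdT sort. The tdT+ LPS library of mouse 5 stands alone at 958 and 7841, while the other LPS libraries lie to the left of those without LPS and overlap them in Sgk1 at the low end, where tdT- LPS mouse 1 has 98.4.

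In tdT- sdCAMs, 5 genes rose and 1 fell, where 14.5% of genes were called higher and 12% lower. Zbtb16 went from 3.56, 1.87 and 0.94 to 93.2, 50.5 and 140 (5.45 ± 0.709, adjusted p = 4.77e-05), Ddit4 from 0, 2.36 and 2.72 to 103, 40.8 and 66.2 (5.35 ± 0.899, adjusted p = 0.000426), and Per1 from 19.1, 19.6 and 27.6 to 114, 55.9 and 115 (2.1 ± 0.438, adjusted p = 0.00231). Klf9 went from 13.4, 13.5 and 8.04 to 38.3, 105 and 161 (3.11 ± 0.752, adjusted p = 0.00617). Fkbp5 went from 68.1, 266 and 63.1 to 651, 494 and 645 (2.17 ± 0.625, adjusted p = 0.0178), 2.18 with an adjusted p of 0.0521 after exchange. It kept its call in 4 of 6 omissions, with adjusted p up to 0.0857 without PBS mice 174 or 177. After exchange 4 genes were called, all higher, Zbtb16 (5.85, adjusted p = 0.00104), Ddit4 (5.58, adjusted p = 0.00364), Per1 (2.32, adjusted p = 0.00751) and Klf9 (3.21, adjusted p = 0.0185). Total scaling also cost Fkbp5 its call (1.41, adjusted p = 0.0836) and called Nr3c1 (-1.33) and Errfi1 (-1.79) lower, for 4 genes higher and 3 lower.

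Tsc22d3 was the gene that fell in tdT- sdCAMs, from 697, 771 and 1052 to 398, 427 and 425, with a log2 fold change of -1.02 ± 0.304 (adjusted p = 0.0214). The groups did not overlap as labelled. After exchange the LPS values became 748, 427 and 425, the groups overlapped and the change was -0.66 (adjusted p = 0.344). Without the 2 libraries it was -1.0 (adjusted p = 0.0627), and without PBS mouse 177 it was -0.87 (adjusted p = 0.1). The baseline of Tsc22d3 was high in all reporter sdCAM libraries after PBS, at 648 to 1136, against 141 to 342 in untreated WT and Ccr2-/- sdCAMs, but batch, genotype and BLZ945 cannot be told apart in that contrast. Sgk1 (79.4, 75.4 and 110 against 98.4, 201 and 129), Nr3c1 (220, 200 and 245 against 165, 158 and 139) and Errfi1 (25.2, 30.7 and 46.5 against 19, 12.1 and 19.1) were not called in tdT- cells. In tdT- cells 5 genes had every LPS library above and 3 below, where 22.2% and 26.8% of genes did. Neutrophil markers went from 0 to a range of 571 to 2234 in tdT- and from at most 1.38 to a range of 8.31 to 47.4 in tdT+ libraries, and their part was not tested.

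The difference between the tdT+ and tdT- responses was tested directly, and none of the 9 genes was called. The fit had no term for the mouse, though both populations were sorted from the same mice. The difference in response was 1.74 ± 0.789 for Sgk1 (adjusted p = 0.234) and 0.93 ± 0.427 for Tsc22d3 (adjusted p = 0.241). Among all genes 5.17% were called as labelled, 0 after exchange and 3.1% with the 2 libraries left out. Without LPS, none of the 9 genes was called between tdT+ and tdT- sdCAMs, where 0.0236% of genes were. Klf9 alone had an unadjusted p under 0.05, with every tdT+ library (5.18, 0.113 and 3.49) below every tdT- library (13.4, 13.5 and 8.04), a position shared by 7.78% of genes, and a difference of -1.99 (adjusted p = 0.917).

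Earlier depletion with BLZ945 made no called difference to any of the 9 genes after LPS. In Ccr2-/- MG 0.0173% of genes were called and none of these 9. Fkbp5 was 963, 1045 and 981 after CTL and 876, 784 and 796 after BLZ945, with every BLZ945 library below, a position held by 5.36% of genes, but with a difference of -0.29 (unadjusted p = 0.0241, adjusted p = 0.691) and an interval from -0.54 to -0.04. In Ccr2-/- sdCAMs and in WT sdCAMs no gene at all was called, while 998 and 758 genes had an unadjusted edgeR p under 0.05, none of them in this set. The WT sdCAM intervals were wide, at -1.36 to 1.7 for Fkbp5, -1.49 to 1.74 for Klf9 and -1.66 to 1.43 for Ddit4, so large differences remain possible. The WT sdCAM groups were also uneven. Every CTL LPS library carries the immediate early gene mark, with Saa3 at 23% to 35.8% of counts. BLZ945 mice 8 and 11 are unmarked, with Saa3 at 2.39% and 1.79%. In WT MG, given without a test, Ddit4 (51, 53.1 and 77.9 against 177, 215 and 91.9), Zbtb16 (52.5, 75.8 and 79.9 against 82.7, 147 and 130) and Per1 (79.6, 84.7 and 84.6 against 91.4, 96.7 and 90.8) were lower after BLZ945 in every library, where 5.7% of genes were.

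The genes whose pattern was most like that of Fkbp5 were named from Pearson's r between group means of log2(CPM + 1) over the 18 groups, which include WT MG. Among 8783 genes they were Socs3 (0.961), the inhibitor of cytokine signalling, Nfil3 (0.953), a basic leucine zipper transcription factor, Il15ra (0.952), Slc39a14 (0.952), a zinc and iron transporter, and Id2 (0.948). Of the 9 genes, Ddit4 came closest, at rank 6 (0.945), then Per1 at rank 32 (0.908), Zbtb16 at 48 (0.884) and Klf9 at 83 (0.855). Tsc22d3 (0.717, rank 378) and Sgk1 (0.608, rank 734) followed the pattern less, and Errfi1 (rank 4581) and Nr3c1 (-0.123, rank 6603) came far down. On the TMM scale Nr3c1 had -0.593 (rank 8146 of 8764). The groups share batches, depth and the LPS injection, so these values describe likeness and nothing else. On the TMM scale 3 of the 5 named genes were again among the first 5.

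Related lists were counted without the 9 genes. They were chosen with earlier results of these data known, so their counts describe the lists and test nothing. Of 32 other genes commonly cited as glucocorticoid targets, 27 were tested in Ccr2-/- MG, where 15 rose and 2 fell, beside 10.5% and 8.89% of all genes, with a median log2 fold change of 1.68 beside 0. In Ccr2-/- sdCAMs 13 of 30 rose and 4 fell (median 0.98), beside 10.9% and 10.6% of all genes, and in WT sdCAMs 8 of 26 rose and 1 fell (median 1.66), beside 3.7% and 2.62%. The counts that fell are near these shares. The members that moved most in Ccr2-/- MG were Il1r2, the decoy receptor for interleukin-1, which went from 0.11 ± 0.19 to 409 ± 25.2 TMM-scaled CPM (adjusted p = 1.01e-09, from 3 counts over the untreated libraries, which leaves the fold uncertain), Lcn2, the iron-scavenging acute-phase protein (log2 fold change 7.71, adjusted p = 1.67e-05), Map3k6 (6.46, adjusted p = 1.59e-07) and the metallothionein Mt2 (6.4, adjusted p = 0.00061). All 4 rose in Ccr2-/- sdCAMs as well. Chosen after their values were seen, both genes that fell in Ccr2-/- MG were Cdkn1c (-1.9, adjusted p = 0.00318), a cell cycle inhibitor, and Rgs2 (-1.75, adjusted p = 0.000153), a regulator of G-protein signalling, and the 4 that fell in Ccr2-/- sdCAMs were Txnip (-1.74), Sesn1 (-2.52), Rgs2 (-2.44) and Arrdc3 (-1.36), while the 1 that fell in WT sdCAMs was Sesn1 (-1.85). Several of the genes that rose, such as Lcn2 and Il1r2, are also known to respond to inflammatory signals directly.

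Of 19 chaperones and coregulators of the receptor tested in Ccr2-/- MG, 2 rose and 1 fell, where 10.5% of all genes were higher and 8.89% lower, so these counts are near the background, as are the FKBP and mTORC1 counts there. The risers were Hsp90aa1 (from 54.2 ± 9.59 to 141 ± 24.9, log2 fold change 1.4, adjusted p = 0.000227) and Hsp90ab1 (from 427 ± 111 to 1016 ± 182, 1.27, adjusted p = 0.000289). The gene that fell was Nr3c2 (-1.69, adjusted p = 0.0348), the mineralocorticoid receptor, which also binds corticosterone. In Ccr2-/- sdCAMs neither Hsp90 gene passed (0.43 and -0.11), and 0 of 18 rose while 3 fell (beside 10.9% and 10.6% of all genes), namely Nr3c2 (-5.15, adjusted p = 0.00895), the coactivator Ncoa3 (-1.38, adjusted p = 0.000809) and Fkbp4 (-1.25, adjusted p = 0.00164), the co-chaperone that exchanges with FKBP5 in the receptor complex. In WT sdCAMs 0 of 18 were called. Nr3c2, Ncoa3, Fkbp4 and the further names below without a level were chosen after their values were seen. Among 12 other FKBP genes in Ccr2-/- MG 1 rose, Fkbp10 (adjusted p = 0.0149, from 3 counts over the untreated libraries), and 1 fell, Fkbp7 (-1.16, adjusted p = 0.0167). In Ccr2-/- sdCAMs 0 of 11 rose and Fkbp1b (-2.65), Fkbp4 and Fkbp9 (-1.56) fell. Of 11 other KLF genes, Klf4 (6.55, adjusted p = 3.31e-07) and Klf13 (2.38, adjusted p = 6.42e-06) rose and Klf12 (-2.16, adjusted p = 0.00108) fell, and in Ccr2-/- sdCAMs Klf4 (2.46) and Klf13 (1.33) rose and Klf10 (-1.34) fell.

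Of 15 clock genes other than Per1 tested in Ccr2-/- MG, 3 rose and 2 fell, beside 10.5% and 8.89% of all genes. Cry1 (from 13.4 ± 3.21 to 59.3 ± 7.97, log2 fold change 2.17, adjusted p = 3.99e-06) and Cry2 (1.75, adjusted p = 0.00392), repressors that partner with PER proteins, were among the first, with Per2 (1.48, adjusted p = 0.026), and Nr1d2 (from 70.2 ± 7.13 to 7.94 ± 5.41, -3.12, adjusted p = 0.000228), a repressor of the clock activator Bmal1, among the latter, with Hlf (-2.13, adjusted p = 0.00723). In Ccr2-/- sdCAMs Cry1 (2.22, adjusted p = 0.0051), Per2 (2.32, adjusted p = 0.0165) and Ciart (adjusted p = 0.00224, with no count without LPS) rose, Bmal1 (-1.07, adjusted p = 0.0212) and Bhlhe41 (-3.0, adjusted p = 0.00276) fell, and Cry2 (1.54, adjusted p = 0.0895) and Nr1d2 (-1.12, adjusted p = 0.0768) were not called. Other regulators of mTORC1, the complex that the product of Ddit4 restrains, gave 1 riser and 1 faller of 12 in Ccr2-/- MG, the riser being Deptor (1.01, adjusted p = 0.00391), which fell in Ccr2-/- sdCAMs (-1.22, adjusted p = 0.0224), and the faller Castor1 (-1.54, adjusted p = 0.0242).

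**Figure D4:**
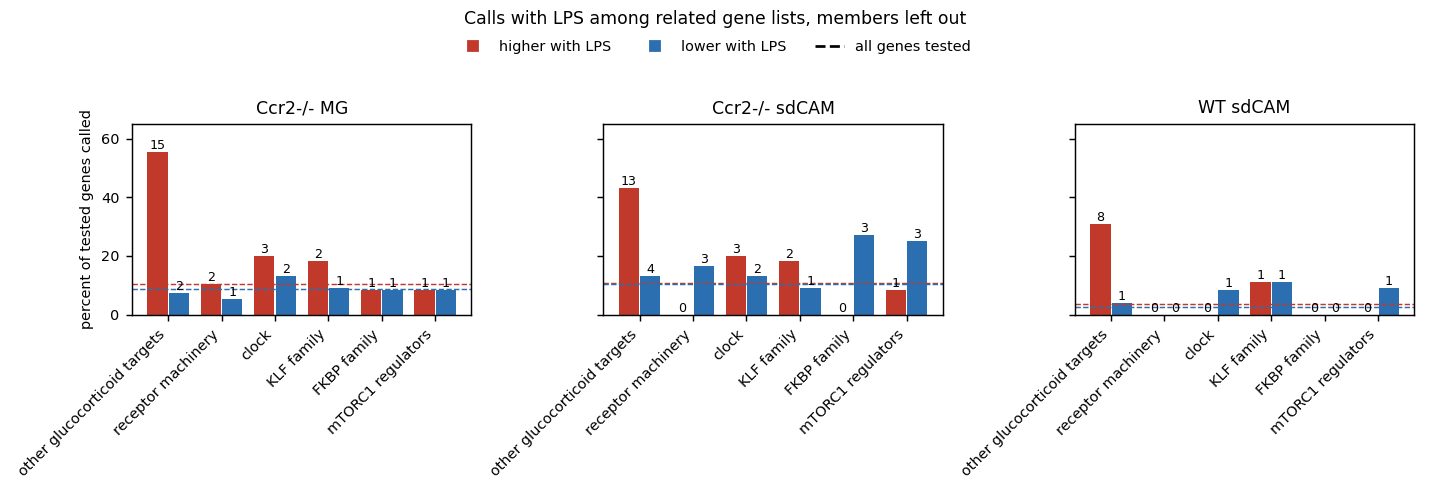
Bars give the percent of tested genes called higher (red) or lower (blue) with LPS in 6 related lists, the 9 genes left out, for 3 populations; numbers over bars are counts of genes and dashed lines the percent over all genes tested. Other glucocorticoid targets were called higher for 15 of 27, 13 of 30 and 8 of 26 genes, above the dashed lines at 10.5%, 10.9% and 3.7%. The lists were chosen with earlier results of these data known, so the counts are a description.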

How the data were processed

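RNA was sequenced with a SMARTer and Nextera XT protocol (50-cycle single reads, HiSeq). The authors aligned reads with STAR 2.7.11a and counted them per gene with featureCounts 2.0.8 against GENCODE M36, so the deposited values are raw counts per gene symbol, in 3 tables of 18 columns each with 0 columns of no sample. The notes name mm10 and GRCm39 without saying which was used, and strand setting is not given in the sources used here. No molecular identifiers were used, so intervals cover counting error and library spread only.

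The counts were tested in R 4.3.3 with edgeR 4.0.16 (quasi-likelihood, TMM, filterByExpr, Benjamini-Hochberg over all genes tested). Genes were called at an adjusted p below 0.05 where the change exceeded 1 on the log2 scale. Fits were made within genotype and cell type, or as 6 groups for interactions, and the script was tested on simulated data. Levels are TMM-scaled CPM with 1 TMM fit over 54 libraries and 15101 genes. The 9 genes and all related lists were chosen with earlier results of these data known. All 9 genes are named. From each related list up to 4 genes are named by rule, those with the largest called changes in Ccr2-/- MG at a mean of at least 10 CPM. Genes of these lists named beyond that rule were chosen after their values were seen. Alternatives were DESeq2 1.42.0, its size factors in edgeR, other count filters, no fold limit, fits of the compared libraries alone, omission of each library, the immediate early gene mark, exchange or omission of the mislabelled columns, mouse as a replicate block and, chosen after seeing the data, scaling by totals, the interaction of tdT with LPS and likeness on the TMM scale. Libraries are labelled with the mouse they came from, which is where the pairing comes from, and 2 reporter LPS labels do not match by sex-linked transcripts. Deviations from group means of such pairs correlated at -0.0241 to 0.157 in Ccr2-/- mice and 0.0369 to 0.167 in reporter sdCAMs. Where nothing says that mice were handled separately, p-values measure the spread between these libraries. Promoter windows are RefSeq's on GRCm38.p6. In GENCODE vM21, no gene overlapped an exon of the 9 genes. The authors' own tests were not used.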

Additional observations from a re-analysis of the deposited data

Results flagged for a closer look

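The LPS response of 3 genes differed between sdCAMs and MG of Ccr2-/- mice by the interaction test. The difference, sdCAM minus MG on the log2 scale, was -3.21 for Klf9, 1.79 for Sgk1 and -7.01 for Zbtb16, the last resting on MG libraries with no count before LPS. Klf9 started at 0.257 to 2.09 TMM-scaled CPM in MG and at 6.11 to 10.5 in sdCAMs, and the LPS levels of the cell types overlapped (61.5 to 106 and 59.5 to 76.8). Sgk1 kept higher levels in MG under both conditions.

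Tsc22d3 moved in opposite directions in different sdCAM populations, with a log2 fold change of 2.53 in Ccr2-/- and -1.02 in tdT- sdCAMs and no overlap of the groups in either. This difference was not tested, since the populations differ in batch, and the second value lost its call after exchange of the 2 mislabelled libraries. No formal test for an outlying library was run on these groups of 3.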

How the results depend on the processing

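Of the counts of the 9 genes called, 195 alternatives stayed within 1.5 times the reported count and 14 did not. These counts add genes called higher and lower, so a change of direction does not show in them. Of the single genes' changes, 604 kept their call status and direction and 66 lost the call. The number called in WT sdCAMs with LPS was 5 without a filter on low counts, 6 with DESeq2, 5 in a fit of the compared libraries alone, 5 with the immediate early gene mark as a covariate and 5 in marked libraries alone, and leaving out 1 library gave 0 to 3. In reporter MG leaving out 1 library gave 0 to 5. Between tdT+ and tdT- sdCAMs after PBS the count was 1 without a filter on low counts. With mouse as a replicate block it was 0 there, 3 for the cell type by LPS interaction and 7 for untreated sdCAMs against MG. The cause of these shifts was not tested. Low counts limit Zbtb16, Klf9 and Ddit4 without LPS, where a few counts set the size of the fold change.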
